A study of Mus musculus with 11 samples.

Results

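The 3 genes described here, Slc17a6, Slc17a7 and Slc17a8, encode the vesicular glutamate transporters VGLUT2, VGLUT1 and VGLUT3. They were taken by symbol from a table of 17118 genes, and all 3 were among the 15353 genes that passed the filter on low counts. The samples are hippocampal tissue punches from mice of a chemotherapy study, sequenced as polyadenylated RNA. Female C57/BL6 mice (C57/BL6J in the sample labels), 12 weeks old, were injected intraperitoneally once a week, 8 times in all. In the AC-T group (mice 501, 502, 503, 600 and 602) the first 4 injections combined doxorubicin at 2 mg/kg and cyclophosphamide at 50 mg/kg, and the last 4 held paclitaxel at 5 mg/kg. Controls (mice 201, 202, 203, 300, 301 and 302) received saline (0.9% sodium chloride). Samples carry a 1-month label, and each library came from 1 mouse.

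Vesicular glutamate transporters sit in the membrane of synaptic vesicles and fill the vesicle with glutamate, driven by the electrochemical gradient that the vesicular proton pump builds up. A neuron that makes one of them can release glutamate, so their mRNAs serve as markers of glutamatergic neurons. VGLUT1 mRNA is the main form in pyramidal and granule neurons of the cortex and hippocampus. VGLUT2 mRNA is the main form in the thalamus and in most subcortical glutamatergic nuclei. Axons from some of these carry the protein into the hippocampus while the mRNA stays mainly in the cell body. VGLUT3 is made by smaller sets of neurons, among them cholecystokinin interneurons and serotonergic neurons of the raphe.

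The proteins are close relatives, so it matters that a read can be given to the right gene. Slc17a6 and Slc17a7 lie on chromosome 7 and Slc17a8 on chromosome 10 in the GENCODE M21 annotation, which belongs to an older build (GRCm38) than the one the submitters name, so no gene positions are given. The longest coding transcripts there have 4137, 2915 and 4456 bases, with coding sequences of 1746, 1680 and 1803 bases. No 31-base word was shared between any pair of them. The longest run of identical bases common to the Slc17a6 and Slc17a7 transcripts was 21 bases, in capitals below, shown with 12 flanking bases on either side because it is the stretch where these 2 mRNAs are hardest to tell apart. It lies within bases 256 to 300 of the Slc17a6 coding sequence and 232 to 276 of that of Slc17a7, counted from the start codon.
Slc17a6: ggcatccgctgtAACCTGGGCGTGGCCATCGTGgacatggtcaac
Slc17a7: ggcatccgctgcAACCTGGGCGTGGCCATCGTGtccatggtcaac
The longest run common to Slc17a6 and Slc17a8 was 25 bases (bases 212 to 260 and 266 to 314 of the coding sequences, flanks included).
Slc17a6: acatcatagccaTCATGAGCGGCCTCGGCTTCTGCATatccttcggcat
Slc17a8: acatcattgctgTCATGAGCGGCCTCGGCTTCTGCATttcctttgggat
Between Slc17a7 and Slc17a8 the longest run was 17 bases. Searched against the transcripts of all other genes on both strands, 0 of the 4107 words of Slc17a6 and 0 of the 2885 words of Slc17a7 were found elsewhere. For Slc17a8, 148 of 4398 words (3.365%) occurred in transcripts of 1051 other genes, and 0 of these 148 were in its coding sequence.

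Library totals ran from 23.4 to 32.1 M counts. Markers of the labelled tissue were present: all 9 dentate granule and all 9 CA1 markers of the lists used were in the table and tested. Markers of the thalamus and habenula were present in every library as well, at a summed 708 to 1058 CPM (counts scaled to a common library size) after AC-T and 1372 to 2038 CPM after saline over 16 genes. All mice are described as female. In 10 libraries Xist, the RNA of the inactive X chromosome, had 13057 to 22963 counts, and in saline 300 it was listed at 0. Mouse numbers begin with 2 or 3 in saline and with 5 or 6 in AC-T, and mice that share this digit are called a series below. Its meaning is not labelled, and each series holds 1 treatment. Nothing in the labels says more about how the mice were related. The p-values between treatments set the group difference against the spread between libraries and take the mice as independent. Likeness of mice within a series is not allowed for, except where series is a random effect.

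AC-T and saline libraries differed in the balance of the 2 main transporters. Slc17a6 fell to 0.517 of its saline level and Slc17a7 rose 1.28-fold, and for both genes the groups did not overlap. Slc17a8 was scarce and did not pass the test. Genes past the threshold (adjusted p under 0.05, edgeR quasi-likelihood test with Benjamini-Hochberg adjustment) made up 8.47% of all genes tested, 4.89% higher and 3.58% lower after AC-T, beside 2 of the 3 transporter genes. Groups did not overlap for 7.52% of all genes tested, beside the same 2 of 3. Counts of genes that rose or fell in the lists below stand beside 4.89% and 3.58% of all genes tested.

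**Figure D1:**
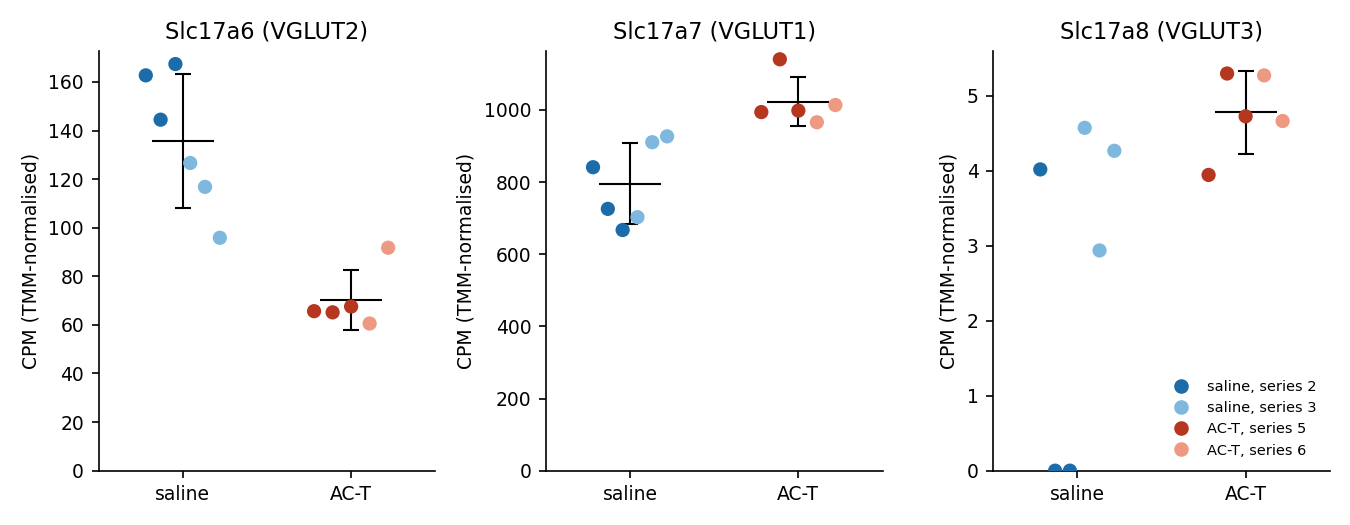
Level of each vesicular glutamate transporter gene in each library (y axis, CPM after trimmed-mean scaling; x axis, treatment). Points are single mice coloured by series, bars are the mean and SD, drawn only where no library is listed at 0; the saline points of Slc17a6 all lie above the AC-T points, and those of Slc17a7 all lie below.

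Slc17a6 stood at 65.6, 65.2, 67.6, 60.6 and 91.8 CPM in AC-T 501, 502, 503, 600 and 602. In saline it ran from 95.8 CPM (mouse 302) to 167 CPM (mouse 203), with a median of 136 CPM. Of the 5 AC-T libraries 4 lay between 60.6 and 67.6 CPM, while AC-T 602 came close to saline 302, so that the groups were separated by a narrow step between those 2 mice. In counts the AC-T libraries held 1815 to 2933 and the saline libraries 3012 to 5161. Means were 70.1 ± 12.4 CPM after AC-T and 136 ± 27.7 CPM after saline (SD, n = 5 and 6), a log2 fold change of −0.95 ± 0.15 (SE; edgeR adjusted p = 0.00552). Leaving out any 1 library kept the fall past the threshold, with adjusted p values from 0.00236 to 0.0194. RNA from bulk tissue does not tell fewer cells of a type from less RNA per cell.

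The saline series differed in mean Slc17a6, though not past the threshold. Levels were 158 ± 12.1 CPM in saline series 2 and 113 ± 15.7 CPM in saline series 3 (SD, n = 3 each). The log2 difference of series 3 from series 2 was −0.48 ± 0.14 (SE; edgeR adjusted p = 0.116; 1.03% of all genes passed in that comparison). Set against saline series 3 alone, the AC-T fall was −0.69 on the log2 scale (edgeR adjusted p = 0.0419), and against saline series 2 alone it was −1.18 (edgeR adjusted p = 0.00185). With AC-T series 6 alone, which is mice 600 and 602, it was −0.84 (edgeR adjusted p = 0.111). Within AC-T, series 5 gave 66.1 ± 1.27 CPM (SD, n = 3), and series 6 held both the lowest and the highest AC-T mouse (log2 difference 0.20 ± 0.16 SE; edgeR adjusted p = 0.651; 0.117% of all genes passed). Without AC-T 602 this last difference was −0.13 (edgeR adjusted p = 0.852).

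Slc17a7, the gene of VGLUT1, moved the other way. Its level was 994, 1140, 998, 966 and 1013 CPM in AC-T 501, 502, 503, 600 and 602, and in saline it ran from 667 CPM (mouse 203) to 927 CPM (mouse 302) around a median of 783 CPM. Every AC-T library was above every saline library, with AC-T 502 the highest. Means were 1022 ± 68.2 CPM after AC-T and 796 ± 112 CPM after saline (SD, n = 5 and 6), a log2 fold change of 0.36 ± 0.093 (SE; edgeR adjusted p = 0.0353).

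This call was close to the threshold and was lost when any 1 of 8 libraries was left out. When AC-T 501, 502, 503, 600 or 602 was left out, the edgeR adjusted p was 0.0549, 0.0939, 0.0550, 0.0538 or 0.0722, in that order. It was 0.0717 without saline 202, 0.0613 without saline 203 and 0.0708 when saline 300 was left out. The call remained without saline 201, 301 or 302. The log2 fold change itself lay between 0.32 and 0.41 in all 11 of these fits. Saline series 2 and 3 stood at 745 ± 88.6 and 847 ± 125 CPM (SD, n = 3 each; log2 difference 0.19 ± 0.12 SE; edgeR adjusted p = 0.425), and AC-T was 0.45 higher on the log2 scale than series 2 alone (edgeR adjusted p = 0.0158) and 0.27 higher than series 3 alone (edgeR adjusted p = 0.149). For AC-T series 6 against series 5 the log2 difference was −0.077 ± 0.13 (SE; edgeR adjusted p = 0.861).

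The ratio of Slc17a6 to Slc17a7 within a library does not depend on scaling between libraries. For every 100 counts of Slc17a7 there were 6.60, 5.71, 6.77, 6.27 and 9.05 counts of Slc17a6 in AC-T 501, 502, 503, 600 and 602. Saline libraries held 10.3 (mouse 302) to 25.1 (mouse 203), with a median of 18.7. All 5 AC-T values lay below all 6 saline values. The means were 6.88 ± 1.28 and 17.6 ± 5.29 counts per 100 (SD, n = 5 and 6). On the log2 scale the ratio differed by −1.31, which is 2.48-fold (exact permutation test over 462 splits, 2-sided, p = 0.00433; 0.00866 adjusted over the 2 ratios tested). The smallest p these splits can give is 0.00216. By series the means were 21.4 ± 3.17 in saline series 2, 13.7 ± 3.92 in saline series 3 and 6.36 ± 0.567 in AC-T series 5 (SD, n = 3 each), and the 2 mice of AC-T series 6 gave 6.27 and 9.05. Saline 301 and 302, at 12.8 and 10.3, were the saline mice nearest to AC-T.

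**Figure D2:**
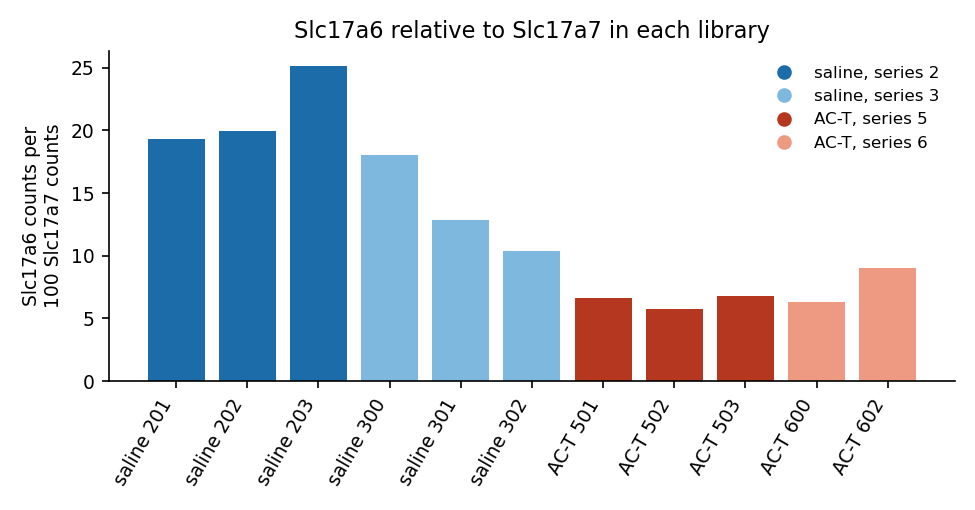
Slc17a6 counts for every 100 Slc17a7 counts (y axis) in each of the 11 libraries (x axis), coloured by series; each bar is 1 mouse. The 5 AC-T bars lie between 5.71 and 9.05 and the 6 saline bars between 10.3 and 25.1.

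The 3 genes were set side by side after division by transcript length. Per kilobase of the longest coding transcript, the means of Slc17a7 were 351 ± 23.4 and 273 ± 38.4 CPM in AC-T and saline libraries, and those of Slc17a6 were 17.0 ± 2.99 and 32.8 ± 6.69 (SD, n = 5 and 6). Slc17a8 stood at 1.07 ± 0.124 CPM per kilobase after AC-T (SD, n = 5). The order Slc17a7, Slc17a6, Slc17a8 held in all 11 libraries. As a share of the 3 genes per kilobase, Slc17a6 made up 4.61 ± 0.811% after AC-T and 10.9 ± 2.97% after saline, with ranges of 3.86 to 5.98% and 6.77 to 15.0%. Slc17a7 made up 95.1 ± 0.804% and 88.9 ± 2.89%. Their sum, which Slc17a7 dominates, ran from 347 to 408 CPM per kilobase after AC-T and from 269 to 342 after saline.

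Slc17a8, the gene of VGLUT3, was listed at 109, 153, 142, 160 and 149 counts in AC-T 501, 502, 503, 600 and 602. In saline it was listed at 95 counts in mouse 201, 127 in mouse 300, 85 in mouse 301 and 134 in mouse 302, and at 0 in mice 202 and 203. In CPM the AC-T libraries held 3.94 to 5.29 and the 4 saline libraries with a value held 2.94 to 4.57, so that the groups overlapped. A listed 0 was read as a value under a limit. Of the 2828 genes with a 0 in some libraries only, 2786 could be given a length, and their lowest listed value had a median of 0.530 CPM per kilobase of the longest transcript, with a 95th percentile of 0.850. For Slc17a8 it was 0.650. The fit takes the zeros as counts and gave a log2 fold change of 0.86 ± 0.88 (SE; edgeR adjusted p = 0.600). Without saline 202 and 203, a fit chosen after seeing the data, it was 0.28 ± 0.15 (SE; edgeR adjusted p = 0.339), from 3.95 ± 0.711 CPM in 4 saline mice and 4.78 ± 0.553 CPM in 5 AC-T mice.

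Relative to Slc17a7, Slc17a8 held 0.397 to 0.546 counts per 100 after AC-T and 0.322 to 0.650 in the 4 saline libraries with a value. The difference in mean log2 ratio was 0.0070 (exact permutation test over 126 splits of 9 libraries, 2-sided, p = 0.952). The saline range enclosed the AC-T range, and saline 202 and 203 were left out because a ratio of 0 has no logarithm.

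Markers of the thalamus and habenula moved with Slc17a6. These neurons use VGLUT2, and the hippocampus lies next to them. Of the 16 markers tested, 15 fell and 0 rose (Gbx2, listed at 0 in some libraries, had an edgeR adjusted p of 0.0951), with a median log2 fold change of −1.08, where the median over all genes tested was −0.0029. These markers were listed with earlier results of these data known, so their count is not independent evidence of a direction. Adarb1, an RNA-editing adenosine deaminase, had means of 279 ± 33.3 and 471 ± 42.2 CPM in AC-T and saline (edgeR adjusted p = 0.00125). Prkcd, a protein kinase C, stood at 0.432 of saline (edgeR adjusted p = 0.0108), and Rora, a nuclear receptor, at 0.534 (edgeR adjusted p = 0.00552). The call of Prkcd ended in edgeR without saline series 2 (adjusted p = 0.0683), AC-T series 5 (0.0807) or AC-T series 6 (0.0522). Slc17a6, at 0.517, lay in the same range. The thalamic score, the mean log2 CPM of the 16 markers, was 4.28 to 5.13 after AC-T and 5.44 to 6.23 after saline.

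Within saline, where treatment does not vary, Slc17a6 and the thalamic markers ran together, at the edge of the threshold after adjustment. Both were higher in saline series 2 than in saline series 3. The score was 5.98 to 6.23 and 5.44 to 5.74, and Slc17a6 was 144 to 167 and 95.8 to 127 CPM, in that order. Each series holds 3 mice, too few for a value within series, and in series 2 the mouse with the lowest score, saline 203, had the highest Slc17a6. Over the 6 saline libraries Pearson's r of Slc17a6 (log2 CPM) with the thalamic score was 0.93 (exact permutation p = 0.0125; 0.050 adjusted over 4 relations), and Spearman's rho was 0.83 (exact permutation p = 0.0583; 0.206 adjusted). Without saline 201 and 302, the mice farthest from the median score, r was 0.88. Slc17a7 gave r = −0.49 and rho = −0.49 (exact permutation p = 0.294 and 0.356; 0.339 and 0.433 adjusted), and r = −0.77 without those 2 mice. Slc17a8 gave r = −0.43 and rho = −0.41 (exact permutation p = 0.339 and 0.433, both also after adjustment), with 2 of its 6 values listed at 0. Without saline 201 and 302 its r was −0.92, over 4 mice that include both with a listed 0. Slc17a6 against Slc17a7 gave r = −0.66 and rho = −0.77 (exact permutation p = 0.156 and 0.103; 0.311 and 0.206 adjusted), and r was −0.13 without saline 203 and 302, so this relation rests on those mice. The 5 AC-T libraries are too few for the same calculation. Among them mouse 501 had the highest thalamic score (5.13) but 65.6 CPM of Slc17a6, near the AC-T median.

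With the thalamic score as a covariate in edgeR, the AC-T difference was −0.16 ± 0.26 for Slc17a6 (log2, SE; adjusted p = 0.953) and 0.14 ± 0.20 for Slc17a7 (adjusted p = 0.947). For Slc17a8 it was −0.15 ± 1.89 (adjusted p = 0.997), with the opposite sign to the fit without the score. In this fit 1 gene in the table passed the threshold. The ranges of the score did not overlap between treatments, so the score and the treatment cannot be told apart in these libraries. Slc17a6 minus the thalamic score, on the log2 scale, was 1.45 ± 0.313 after AC-T and 1.22 ± 0.111 after saline (SD, n = 5 and 6), with ranges of 0.905 to 1.66 and 1.11 to 1.41 that overlapped.

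**Figure D3:**
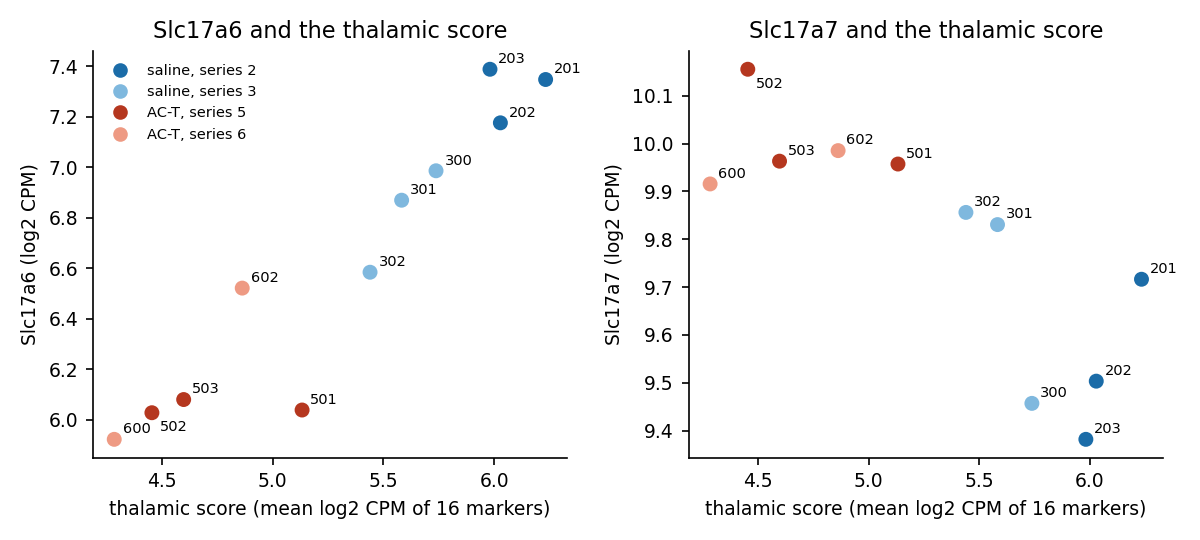
Slc17a6 (left) and Slc17a7 (right), in log2 CPM, against the thalamic score (x axis, mean log2 CPM of 16 thalamic and habenular markers) for 11 mice, numbered and coloured by series. Score and treatment divide the mice alike, with AC-T at 4.28 to 5.13 and saline at 5.44 to 6.23.

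Slc17a7 was set beside 9 genes of forebrain glutamatergic neurons in general. Of these 3 rose, among them Emx1 and Neurod6, and 0 fell, with a median log2 fold change of 0.19. Neurod6, a transcription factor of pyramidal neurons, rose 1.65-fold (193 ± 21.8 against 117 ± 26.4 CPM; edgeR adjusted p = 0.0150). Its call ended with series as a random effect in limma-voom (adjusted p = 0.0604), and in edgeR without saline series 2 (0.0558), AC-T series 5 (0.116) or AC-T series 6 (0.0662). Camk2a, the kinase of excitatory synapses, stood at 3885 ± 409 and 3415 ± 749 CPM (edgeR adjusted p = 0.460), and Nrn1, which encodes neuritin, at 216 ± 17.1 and 223 ± 27.6 CPM (edgeR adjusted p = 0.807). The mean log2 CPM of the 9 genes was 6.38 to 6.69 after AC-T and 6.13 to 6.48 after saline. Slc17a7 minus this mean was 3.47 ± 0.083 and 3.35 ± 0.099 (log2, SD, n = 5 and 6), and the ranges overlapped. Lists for single regions whose principal neurons use VGLUT1 moved unequally. Median log2 fold changes were 0.89 for CA1, 0.85 for neocortical and 0.14 for subiculum markers. They were 0.023 for CA2 and CA3 and −0.17 for dentate granule markers. Past the threshold, 4.89% of all genes tested rose and 3.58% fell. Of 9 CA1 markers 1 rose (Mpped1, 1.90-fold, from 92.1 ± 29.2 to 175 ± 16.6 CPM; edgeR adjusted p = 0.0255) and 0 fell. Their mean log2 CPM was 5.64 to 6.00 after AC-T and 3.15 to 5.27 after saline, lowest in saline 201, where Slc17a7 stood at 841 CPM. Of 11 markers of neocortical neurons 5 rose (Cplx3, Fezf2, Lamp5, Rprm and Tbr1) and 1 fell (Rorb), and of 9 dentate granule markers 0 passed. Of 8 CA2 and CA3 markers tested 1 fell (Pcp4, 0.561 of saline; edgeR adjusted p = 0.0217), and of 5 subiculum markers 1 rose (Tle4, 1.33-fold; edgeR adjusted p = 0.00254). The calls in these region lists were not followed through the alternative fits. The part of these cell types in the rise of Slc17a7 was not tested.

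For Slc17a8 the lists held 6 markers of cholecystokinin interneurons, of which 1 rose and 1 fell, beside 4.89% and 3.58% of all genes tested. The gene that fell was Adarb2, a relative of Adarb1 (0.690 of saline; edgeR adjusted p = 0.00974). Cnr1, the cannabinoid receptor of their terminals, rose 1.48-fold (124 ± 19.6 against 83.3 ± 10.4 CPM; edgeR adjusted p = 0.0124). That call ended with series as a random effect in limma-voom (adjusted p = 0.0555), and in edgeR without saline series 3 (0.0657) or AC-T series 5 (0.0964). Cck itself stood at 141 ± 12.2 and 131 ± 7.46 CPM (edgeR adjusted p = 0.322). Of 5 markers of serotonergic raphe neurons, 2 were matched in the table and 1 was tested, Ddc, the decarboxylase of serotonin and dopamine synthesis, at 9.84 ± 1.24 and 10.2 ± 1.47 CPM (edgeR adjusted p = 0.827).

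Other transporters that fill vesicles were taken from lists. Within the SLC17 family 1 further gene was matched in the table, Slc17a5, the lysosomal sialic acid transporter, from 14.0 to 17.7 CPM in saline and from 17.2 to 20.3 CPM in AC-T libraries (edgeR adjusted p = 0.0712). Of 9 other vesicular transporters and vesicle proteins, 6 were tested, 1 rose and 0 fell, with a median log2 fold change of 0.049. The gene that rose was Sv2b, a vesicle glycoprotein, from 262 ± 37.8 to 402 ± 66.5 CPM (1.54-fold; edgeR adjusted p = 0.0138). Its call ended with series as a random effect in limma-voom (adjusted p = 0.0719), and in edgeR without saline series 2 (0.0724), AC-T series 5 (0.122) or saline 202 and 203 (0.0628). Slc32a1, which encodes VGAT, the vesicular transporter for GABA and glycine, stood at 59.4 ± 8.68 and 61.6 ± 16.2 CPM (log2 fold change −0.049 ± 0.16 SE; edgeR adjusted p = 0.897), and its sign turned in several alternative fits. Of 12 markers of GABAergic interneurons, which use VGAT, 4 rose and 1 fell, beside 4.89% and 3.58% of all genes tested. Among those markers were Sst, the peptide somatostatin, at 1.62-fold and Pvalb, a calcium buffer, at 0.639 of saline (edgeR adjusted p = 0.000593 and 0.0391). Gad1 and Gad2, the most abundant of the 12, did not pass. Their log2 fold changes were 0.11 ± 0.12 and 0.013 ± 0.095 (SE, edgeR adjusted p = 0.641 and 0.955). Clcn3, a vesicular chloride transporter, and Slc18b1, a vesicular polyamine transporter, had log2 fold changes of 0.072 ± 0.043 and 0.064 ± 0.057 (SE). The other vesicle glycoproteins, Sv2a and Sv2c, had 0.035 ± 0.076 and −0.13 ± 0.13 (log2, SE).

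Glutamate for the vesicles comes from glutamine, from mitochondria and from uptake at the membrane. Of 22 genes of this supply tested, 1 fell and 0 rose, beside 3.58% and 4.89% of all genes tested. The median log2 fold change of the 22 was 0.034. The gene that fell was Slc25a18, a mitochondrial glutamate carrier, from 51.7 ± 4.22 to 38.03 ± 6.28 CPM (0.735 of saline; edgeR adjusted p = 0.0217), and its call ended without AC-T 502 (0.0586) or AC-T 602 (0.0548). It ended too without saline series 2 (0.0878), saline series 3 (0.0766), AC-T series 6 (0.0872) or saline 202 and 203 (0.0826), and with series as a random effect in limma-voom (0.0552). Of 7 markers of astrocytes, which make this carrier, 2 fell (Aqp4, a water channel, and Slc4a4, a bicarbonate transporter) and 0 rose. The median log2 fold change of the 7 was −0.23. The most abundant of the 7, Slc1a2, Slc1a3 and Gfap, did not pass. Their log2 fold changes were 0.13, 0.073 and −0.039 (edgeR adjusted p = 0.518, 0.756 and 0.895). The part of astrocytes in the fall of Slc25a18 was not tested. Slc25a22, another mitochondrial glutamate carrier, had means of 221 ± 14.0 and 188 ± 19.7 CPM (edgeR adjusted p = 0.0765, and 0.0386 without saline 201). Slc38a1, a glutamine transporter, had a log2 fold change of −0.18 ± 0.075, and Slc1a6, a glutamate transporter of neurons, one of −0.59 ± 0.25 (SE; edgeR adjusted p = 0.147 and 0.163).

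Of 16 subunits of the vesicular proton pump, 3 rose and 0 fell, beside 4.89% and 3.58% of all genes tested. The median log2 fold change of the 16 was 0.16. Atp6v1g2, a neuronal subunit, rose 1.21-fold (452 ± 28.9 against 373 ± 36.8 CPM; edgeR adjusted p = 0.0389), Atp6v0d1 1.17-fold and Atp6v1h 1.19-fold (edgeR adjusted p = 0.0328 and 0.0477). These calls were not firm: leaving out 1 library ended them for 8, 7 and 10 of the 11 libraries, with the highest adjusted p values without AC-T 502 (0.101, 0.0850 and 0.111). With library totals as scaling the adjusted p values were 0.0697, 0.0777 and 0.0934, past the threshold for none of the 3. Atp6v1a and Atp6v1e1 had log2 fold changes of 0.27 ± 0.078 and 0.22 ± 0.076 (SE; edgeR adjusted p = 0.0540 and 0.0929).

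**Figure D4:**
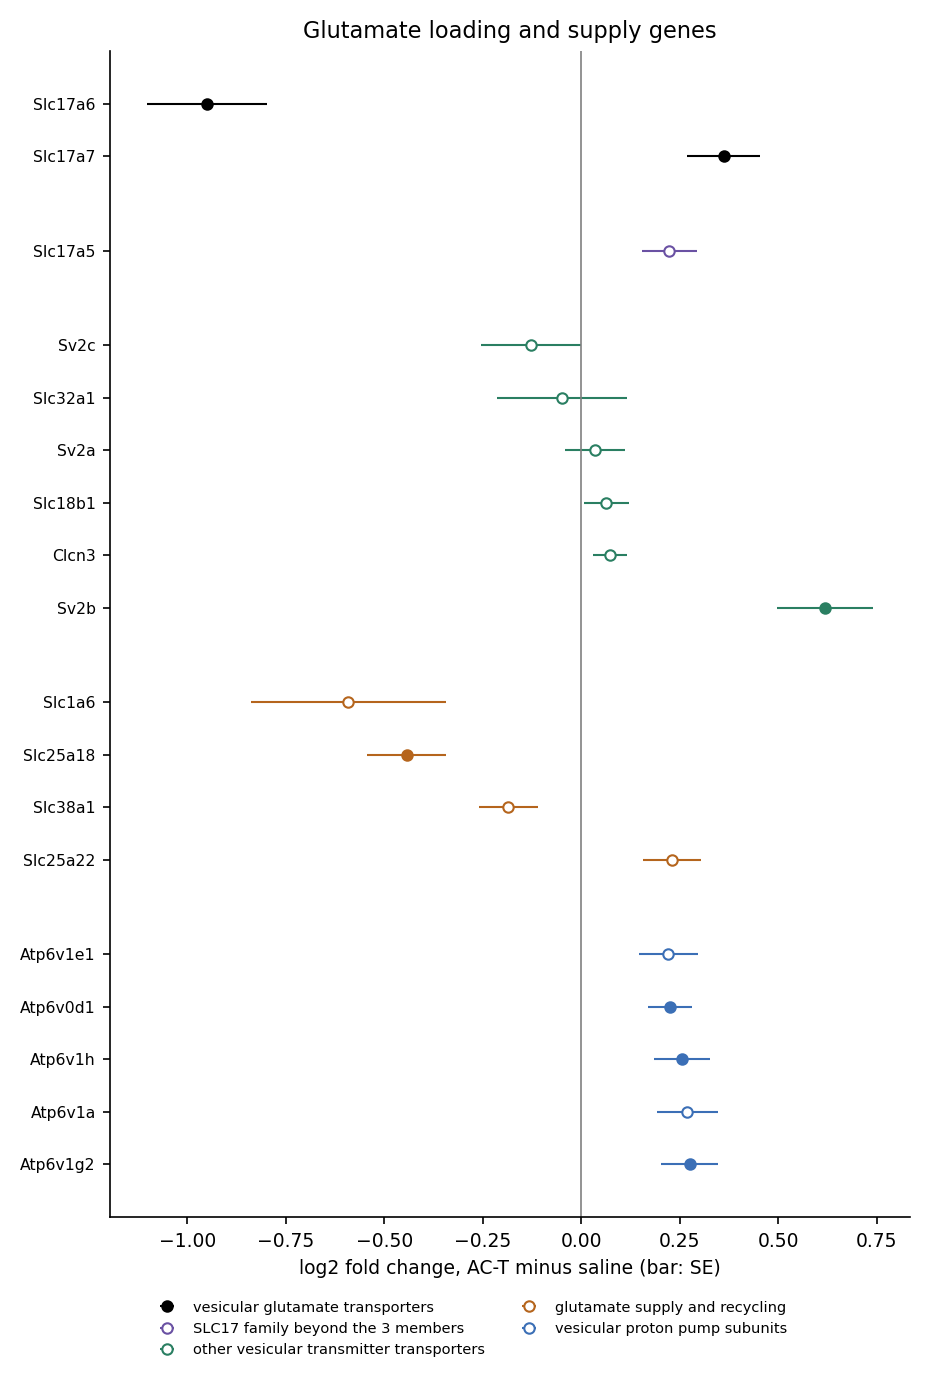
Log2 fold change of AC-T minus saline (x axis, bar is the SE of the fit) for Slc17a6, Slc17a7 and the genes of 4 lists named in the text, chosen mostly for the smallest p in each list (y axis, coloured by list); filled points have an adjusted p under 0.05. Slc17a6 lies farthest left at −0.95. Of the 18 genes drawn 7 passed, a count raised by choosing genes for their small p, beside 8.47% of all genes tested. Slc17a8 is not drawn because 2 of its values are listed at 0.

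The genes whose levels followed each transporter most closely were found by Pearson's r of log2 CPM over the 11 libraries among 12587 genes, given as a description. For Slc17a6 they were Arhgap24 (r = 0.98), Slc8a3 (0.98), Grin2d (0.98), Btbd11 (0.97) and Fhdc1 (0.97). Slc8a3 encodes a sodium-calcium exchanger, Grin2d a subunit of the NMDA receptor and Arhgap24 a GTPase activating protein. After the group means were taken out, r with Slc17a6 was 0.86 to 0.96 for these 5 genes. None of the 5 is in the thalamic list. The most opposite patterns were those of Pde2a, a cyclic nucleotide phosphodiesterase, Wdr17 and Abracl (r = −0.96 each). For Slc17a7 the closest were Lrfn2, a synaptic adhesion protein (0.98), Neurod6 (0.98), Pip4k2c, a lipid kinase (0.97), Arhgap15 (0.97) and Dock4 (0.97), with r of 0.91 to 0.96 after the group means were taken out. The most opposite were Trmt2b, Itih3 and Ube4a (r = −0.94 each). Slc17a6 and Slc17a7 had r = −0.84 with each other, and −0.50 after the group means were taken out. All these values share the library and its scaling.

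For Slc17a8 the 5 closest genes were Dnah9, an axonemal dynein, Wdr66, Trp73, a relative of p53, Serpinb8 and Cfap43, a protein of cilia (r = 0.98 to 0.99). Each of the 5 was listed at 0 in saline 202 and 203 and in no other library, as Slc17a8 was, so this likeness follows which values the table lists at 0. Markers of the choroid plexus, which lies in the ventricle beside the hippocampus, varied widely (mean log2 CPM −0.39 to 7.20), with −0.39 in saline 203 and 4.22 in saline 202. In AC-T 501 and saline 301, where Slc17a8 was listed at 109 and 85 counts, it was 0.73 and 1.73. The most opposite were Aifm3, Micalcl and Alas2 (r = −0.90, −0.90 and −0.89).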

How the data were processed

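Tissue was taken with a 0.2 mm punch from frozen brain slices, and stranded mRNA libraries were sequenced, per the labels. The submitters' processing notes and the series text name Dragen 4.3.6, FastQC 0.11.9, Salmon 1.9.0 and build GRCm39. The annotation release and the step that wrote the table are not given in the sources used here. The deposited values are expected counts: 13.7 to 14.7% of the values of a library had a fraction, and they were rounded to whole numbers. The series text gives 6 mice for either treatment, and 5 with AC-T were analysed here.

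Tests used edgeR 4.0.16 in R 4.3.3 (quasi-likelihood, trimmed mean of M values, filterByExpr with a minimum count of 10, 2-sided, Benjamini-Hochberg over 15353 genes), checked on simulated data. CPM values are given with SD over mice. Series were compared in a model with 4 group means. Ratios were taken without a pseudocount and tested by exact permutation. Log2 CPM used a prior count of 2.

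Alternatives were other scaling factors, filters, a robust dispersion, unrounded values, covariates (sva 3.50.0), DESeq2 1.42.0, limma 3.58.1, and omission of each library and series. Of the marker genes, only Adarb1, Prkcd, Rora, Neurod6, Camk2a, Nrn1, Cnr1, Cck and Slc32a1 were followed through them. The 3 genes, the gene lists and the tests were chosen with earlier results of these data known. Named are the 3 genes, up to 5 genes with the smallest p from each gene list, up to 3 of the most abundant markers, and the 5 most similar and 3 most opposite genes (average log2 CPM 1 or more). Markers outside this rule (such as Emx1, Gbx2, Adarb2, Tle4 and the neocortical genes) and Slc32a1 were named after their values were seen. Some genes the rule takes are not reported here.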

Additional observations from a re-analysis of the deposited data

Results flagged for a closer look

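In 2 of the 10 sets of libraries examined, 1 AC-T library lay apart from the other 4 by a large part of the group's range; chance alone marks about 1 set in 20. The level of Slc17a6 in AC-T 602 was 91.8 CPM, with the next highest at 67.6 CPM and the lowest at 60.6 CPM. The fall of Slc17a6 was −1.07 on the log2 scale without this library. The level of Slc17a7 in AC-T 502 was 1140 CPM, with the next highest at 1013 CPM and the lowest at 966 CPM. The rise of Slc17a7 was 0.32 on the log2 scale without it (edgeR adjusted p = 0.0939).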

How the results depend on the processing

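Slc17a6 kept its direction in all 28 alternative fits and its call in 26. It lost the call with the thalamic score as covariate (−0.16) and without AC-T series 5 (−0.84), and leaving out 1 library gave −1.07 to −0.88. Slc17a7 kept its direction too but lost its call with the thalamic score (0.14), a surrogate variable (0.36), series as a random effect in limma-voom (0.37), without saline series 2 (0.27), AC-T series 5 (0.31) or AC-T series 6 (0.39), without the libraries in which Slc17a8 is at 0 (0.27), and without any 1 of 8 libraries; leaving out 1 of all 11 gave 0.32 to 0.41. Slc17a8 turned to −0.15 with the thalamic score; it could not be fitted among genes above 0 in all libraries, and leaving out 1 library gave 0.60 to 1.09. Its value, never past the threshold, was 2.92 with limma-voom, 3.01 with series as a random effect, 1.86 without saline series 3, and 0.28 without saline series 2 and without saline 202 and 203. The number of genes past the threshold, 1301 at first, was 1 with the thalamic score, 2559 with DESeq2, 293 with series as a random effect, 549 without saline series 2, 317 and 409 without AC-T series 5 and 6, 480 without saline 202 and 203, and 625 to 1229 without 1 library (lowest without AC-T 502, then 681, 815 and 832 without AC-T 602, saline 202 and saline 300). With upper-quartile factors and with library totals the split into higher and lower genes was 593 against 663 and 487 against 548, in place of 751 against 550.

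The Slc17a6 to Slc17a7 ratio differed by −1.50 by medians (adjusted p = 0.0519) and by −1.16 without AC-T series 5 (0.0714, the smallest that the remaining splits allow after adjustment); leaving out 1 library gave −1.45 to −1.20, past the threshold each time. The Slc17a8 ratio, 0.0070 over 9 libraries, was 2.18 over all 11 with 1 count added to both genes (adjusted p = 0.318). It turned to −0.014 by medians, −0.036 without saline series 3 and −0.063 without AC-T series 6, and leaving out 1 library gave −0.17 to 0.17. The series 6 minus series 5 difference was −0.13 to 0.47 for Slc17a6 and −0.012 to 0.20 for Slc17a8 without 1 library, and the series 3 minus series 2 difference of Slc17a8 was 0.98 to 9.85, the last without saline 201, where series 2 is left with values of 0 only. Slc17a6 with the thalamic score in saline gave r = 0.94 with library totals (adjusted p = 0.0389), and 0.89 to 0.98 without 1 library. Genes that had not passed changed sign: Slc32a1 was 0.38 with the thalamic score, −0.12 to 0.097 without 1 library (0.030 without AC-T 501, 0.097 without saline 202), 0.24 without saline series 2, 0.037 without AC-T series 5 and 0.15 without saline 202 and 203. Camk2a was −0.15 with the thalamic score and −0.049 without saline series 2, Slc17a5 was −0.026 with the score, and Nrn1 was −0.080 to 0.021 without 1 library, the last without saline 201. Some passed in an alternative: the DESeq2 adjusted p was 0.0248 for Slc17a5 and 0.0220 for Slc25a22. For Camk2a the lowest edgeR adjusted p among the alternatives was 0.0309. The causes of these changes were not tested. No paired analysis was possible because the groups share no mouse number. Listed values of Slc17a8 were 85 to 160 counts; it was at 0 in saline 203, with 30.3 M counts in all, and at 95 in saline 201, the shallowest library with 23.4 M.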
